A study of Mus musculus with 2 samples.

Results

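Interferon-stimulated genes are the genes that cells switch on when interferons, the cytokines of antiviral defence, bind their receptors. A list of 37 such genes was compared between mouse hearts 3 days after myocardial infarction and mouse hearts 3 days after a sham operation. Members were found by gene symbol: a probe set, the group of probes that reads 1 transcript on the array, was taken if its annotation named a single gene and that gene was on the list. In this way 35 of the 37 genes were measured, by 58 probe sets, out of 18193 genes on the array. Ifi44 had no probe set, and Isg15 had no probe set that did not also name another gene, so neither has a value here.

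The infarct group consisted of male C57BL/6J mice, 10 weeks old, whose left anterior descending coronary artery was ligated permanently. The sham group consisted of mice of the same strain, sex and age that underwent the procedure without ligation. Each array received a pool of RNA made from 3 hearts, so that there was 1 infarct pool and 1 sham pool. The spread between mice is therefore unknown, no p-value is given, and each value below describes these 2 pools. The tissue label is heart, and cardiomyocyte genes were bright on both arrays (11 markers, 12.62 to 14.89 in the infarct pool and 13.01 to 14.90 in the sham pool, on the log2 scale of the deposited values).

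Type I interferons signal through the receptor IFNAR to a complex that contains STAT2 and IRF9. This complex binds the interferon-stimulated response element (ISRE) near the start of genes such as Ifit1 and Oas1a. Interferon gamma signals through another receptor to STAT dimers that bind the gamma activated site (GAS), as in the promoter of Irf1. In infarcted mouse hearts, macrophages that take up the DNA of dying cells are known to mount a type I response, and many of the same genes are kept at a low level in healthy tissue by steady interferon signalling.

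The promoters of several members carry these elements, and a selection of matches, from members on both sides of 0, is shown here so that the elements can be set beside the values. Windows from 250 bases before to 50 bases after each RefSeq gene start (build GRCm38.p6) matched 30 of the 37 genes. They were searched on both strands for the ISRE letters (GAAA, any 2 bases, GAAA, which reads TTTC, any 2 bases, TTTC on the other strand) and the GAS letters TTCNNNGAA, which read the same on both strands. Each sequence runs 5′ to 3′ on the strand of its gene, capitals mark the matched letters, and overlapping matches of the same element are joined.
Oas1a ISRE, chr5:120907523-120907552, minus strand: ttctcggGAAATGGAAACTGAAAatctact
Bst2 ISRE, chr8:71537580-71537609, minus strand: attccagGAAAATGAAACTGAAAggctgca
Ddx58 ISRE, chr4:40239806-40239831, minus strand: tgaggcagTTTCGATTTCctatggcc
Irf8 GAS, chr8:120736179-120736203, plus strand: aaagtgatTTCTCGGAAagagagcg
Irf8 GAS, chr8:120736197-120736221, plus strand: gagagcgcTTCAGAGAAggcggatt
Irf1 GAS, chr11:53769916-53769940, plus strand: agcctgatTTCCCCGAAatgatgag
Ifit1 ISRE, chr19:34640777-34640802, plus strand: ggcttcagTTTCACTTTCcagtctca
Ifit1 ISRE, chr19:34640796-34640821, plus strand: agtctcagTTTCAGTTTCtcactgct
Ifit3 ISRE, chr19:34583365-34583390, plus strand: gtggtaagTTTCACTTTCctcttctg
Ifit3 ISRE, chr19:34583399-34583424, plus strand: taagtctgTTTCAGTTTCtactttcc
Gbp2 ISRE, chr3:142620596-142620621, plus strand: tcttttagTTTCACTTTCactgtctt
Gbp3 ISRE, chr3:142559992-142560021, plus strand: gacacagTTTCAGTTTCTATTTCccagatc
Gbp7 ISRE, chr3:142530275-142530300, plus strand: gtgtgcagTTTCAGTTTCagttctcc
Igtp ISRE, chr11:58199514-58199539, plus strand: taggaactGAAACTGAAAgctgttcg
Of the 30 members with a window, 15 held at least 1 ISRE match, 10 held a GAS match, 4 held both and 9 held neither. Over all 27025 genes with a window, 3.99% held the ISRE letters and 9.55% the GAS letters (3.44% and 8.30% of the 32851 windows). In Oas1a, Bst2, Gbp3 and Irgm1 a pair of ISRE matches overlapped, and in Isg15 a run of 3 did. In Bst2 the first of the pair also overlapped the end of a GAS match. A match is a run of letters and was not tested for binding.

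Across the members, the infarct pool differed little from the sham pool. Of the 35 genes, 34 were bright enough to be compared, meaning that the brightest probe set of the gene was at or above the array's own median in the infarct pool, the sham pool or both. Their median log2 difference (infarct minus sham throughout) was 0.18, against 0 for all 11961 genes compared. No member was at least 2-fold higher (0 of 34, where 3.73% of all genes were) and none was at least 2-fold lower (0 of 34, where 1.26% were). At those background shares, 34 genes would hold 1.27 and 0.43 such genes, so that a count of 0 lies near the background. None of the 58 probe sets, of which 49 were bright, differed by 2-fold in either direction. The share over all probe sets was not counted, so this 0 has no background beside it. In whole tissue, fewer cells of a type and less RNA per cell cannot be told apart, here and in all values below.

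Smaller differences leaned towards the infarct pool as deposited, but not with the zero of the scale set on housekeeping genes. As deposited, 26 of the 34 members (76.5%) lay above 0, against 49.5% of all genes, and 8 lay below 0, against 49.8%. With the housekeeping zero, 6 (17.6%) lay above 0, against 17.3% of all genes. At 1.5-fold, a threshold chosen after the values were seen, 3 members were higher (8.82%, against 10.3% of all genes) and 1 was lower (2.94%, against 6.32%). The middle 50% of the members spanned 0.25, from 0.04 to 0.29, and that of all genes spanned 0.49, from -0.23 to 0.26. The members thus sat in a narrow band slightly above the centre of the distribution, and 33 of 34 lay between its 5th and 95th percentiles (-0.65 and 0.89), with Iigp1 alone below.

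**Figure D1:**
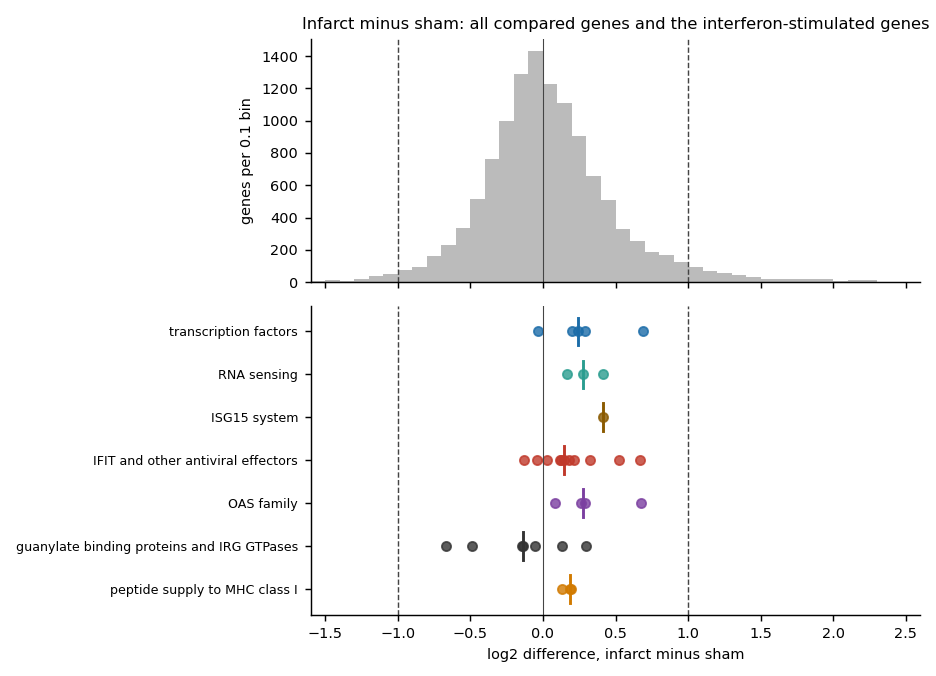
Upper panel, number of genes per bin of 0.1 by log2 difference (infarct minus sham) for all compared genes, with the axis limited to -1.6 to 2.6; lower panel, the 34 compared members by role, 1 point per gene, with the median of each role as a vertical line and the 2-fold limits dashed. All members lie inside the 2-fold limits, and the guanylate binding proteins and IRG GTPases are the role whose median lies below 0 (-0.14).

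How far a difference can be read depends on the probes and on the zero of the scale. Where a gene had at least 2 bright probe sets, their differences scattered with a pooled SD of 0.23 (5190 genes), or 0.14 among the 10 members of this kind. That scatter is between probes, and mice do not enter it. By that measure 19 members lay within 0.23 of 0, 13 lay above 0.23 and 2, Gbp2 and Iigp1, lay below -0.23. Among all genes, 47.1% lay within 0.23 of 0, 27.6% above and 25.4% below.

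The 8 measured housekeeping genes averaged 0.39 higher in the infarct pool, but they disagreed widely, with Sdha at -0.44 and Gusb at 1.12. The added hybridisation controls averaged 0.32 lower (-0.54 to -0.0032), and the added poly-A controls averaged 0.06 higher (-0.06 to 0.21). Each such zero shifts every gene by the same amount, so that it changes signs and counts but not the place of the members among all genes. Setting the zero on the housekeeping genes moved the median of all genes to -0.39 and that of the members to -0.21, with 6 of 34 members above 0. Setting it on the hybridisation controls moved these medians to 0.32 and 0.50, with 32 of 34 members (94.1%) and 81.9% of all genes above 0. As deposited, 446 of all genes were at least 2-fold higher and 151 at least 2-fold lower. These counts were 180 and 696 on the housekeeping genes, 962 and 40 on the hybridisation controls, and 391 and 198 on the poly-A controls. The median of the members lay 0.18 above that of all genes as deposited, and 0.14 to 0.21 above it over the 12 settings that kept the 2-fold rule. Over these settings 8 members kept their sign: Irf8, Oas1a, Mx1, Bst2, Usp18 and Ddx58 above 0, and Gbp2 and Iigp1 below it. The 6 above 0 are those that stayed above it on the housekeeping genes (17.6% of members, against 17.3% of all genes), Usp18 and Ddx58 by only 0.02. How many of all genes kept their sign was not counted. Most changes of sign among the other 26 came with the housekeeping and hybridisation zeros, which move all genes alike.

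**Figure D2:**
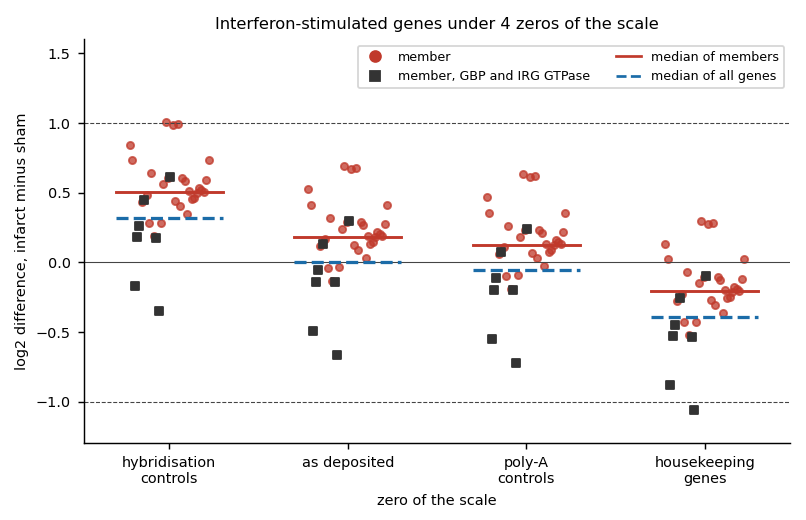
Log2 difference (infarct minus sham) of each of the 34 compared members with the zero of the scale set on the hybridisation controls, as deposited, on the poly-A controls and on the housekeeping genes; circles are members, squares those that encode guanylate binding proteins and IRG GTPases, the solid line is the median of the members and the dashed line that of all genes. The median of the members moves with the zero (0.50, 0.18, 0.13 and -0.21), as does that of all genes, because each zero shifts every gene equally.

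The transcription factors of the list included the member with the highest difference. Irf8, a factor that macrophages and dendritic cells need for their development and that interferon gamma also induces, had 8.39 in the infarct pool and 7.70 in the sham pool, a difference of 0.69 (1.61-fold). Its second probe set gave 8.12 in the infarct pool and 7.32 in the sham pool, a difference of 0.80. Both probe sets of Irf8 were thus higher in the infarct pool by a similar amount. With the zero on the hybridisation controls its difference was 1.01, the only one of a member to reach 2-fold there.

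The other factors differed by less. Irf7, which amplifies the type I response by inducing interferon alpha genes, had 8.11 in the infarct pool and 7.87 in the sham pool (0.24). The partners of the ISRE-binding complex, Irf9 (8.31 in the infarct pool, 8.02 in the sham pool) and Stat2 (6.99 in the infarct pool, 6.78 in the sham pool), differed by 0.29 and 0.20. Irf1, a direct target of interferon gamma with the GAS match shown above, had 9.35 in the infarct pool and 9.39 in the sham pool. The differences of Irf1 (-0.04) and Stat2 (0.20) were smaller than the pooled SD of 0.23 between probe sets of all genes, and that of Irf7 (0.24) was close to it. The differences of Irf7, Irf9 and Stat2 lay below 0 with the zero on the housekeeping genes. The median of the 5 factors was 0.24 (-0.15 on the housekeeping genes).

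The sensors of viral RNA in the cytoplasm lay on the same side of 0 as deposited. Ddx58, which encodes RIG-I, had 8.39 in the infarct pool and 7.97 in the sham pool (0.41), and its dimmer probe sets gave 0.08 and 0.13. Ifih1, which encodes the sensor MDA5 of long double-stranded RNA, had 8.69 in the infarct pool and 8.52 in the sham pool (0.17). Trim25, a ubiquitin ligase that acts in the RIG-I pathway, had 9.53 in the infarct pool and 9.26 in the sham pool (0.27), with 0.19 and -0.0049 by its other probe sets. With the zero on the housekeeping genes, Ddx58 stood at 0.02 and the other two sensing genes lay below 0.

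Usp18, the protease that removes ISG15 from proteins and dampens signalling at IFNAR, stood for the ISG15 system. It had 8.12 in the infarct pool and 7.70 in the sham pool by its single probe set, a difference of 0.41 (1.33-fold). It stayed above 0 on every zero, though by only 0.02 on the housekeeping genes.

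Among the antiviral effectors, Mx1 and Bst2 had the widest differences, and the clustered Ifit genes lay on both sides of 0. Mx1 encodes a dynamin-like GTPase against influenza virus, whose allele in C57BL/6 mice is known to be defective. It had 7.08 in the infarct pool and 6.42 in the sham pool (0.67, 1.59-fold), and the sham value was just above the array median of 6.36. Bst2, which encodes tetherin, a membrane protein that holds budding virus on the cell and is abundant on plasmacytoid dendritic cells, had 9.0 in the infarct pool and 8.47 in the sham pool (0.52, 1.44-fold). Both genes rest on 1 probe set. The second Mx gene, Mx2, differed by 0.12 (7.27 in the infarct pool and 7.15 in the sham pool).

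The IFIT proteins bind foreign RNA and are among the transcripts that type I interferon induces most. Ifit1 had 8.03 in the infarct pool and 8.07 in the sham pool (-0.04), and Ifit3 had 8.89 in the infarct pool and 9.02 in the sham pool (-0.13). Ifit2 had 9.03 in the infarct pool and 8.70 in the sham pool (0.32). These genes lie in 1 cluster on chromosome 19, each has 1 probe set, and their differences took both signs. On the hybridisation controls they lay above 0, at 0.19 to 0.64, and on the housekeeping genes below it, at -0.52 to -0.07. Both ISRE matches of Ifit1 and of Ifit3 are shown above, whereas the windows of Ifit2 held the GAS letters and no ISRE match.

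Rsad2, which encodes viperin, had 10.11 in the infarct pool and 9.96 in the sham pool (0.15), and its dimmer probe sets gave -0.06 and -0.04. Samhd1, a nucleotide hydrolase that starves retroviruses, had 5 probe sets between -0.16 and 0.26, with 0.22 by the brightest (8.57 in the infarct pool and 8.36 in the sham pool). For neither gene did the probe sets share a sign. The chaperone gene Rtp4 (10.07 in the infarct pool, 9.89 in the sham pool), Ifi35 (10.19 in the infarct pool, 10.07 in the sham pool) and Parp14, an ADP-ribosyltransferase gene (8.44 in the infarct pool, 8.41 in the sham pool), differed by 0.18, 0.12 and 0.03. All 5 of these genes lay below 0 on the housekeeping genes. The median of the 11 effectors was 0.15 as deposited, 0.46 on the hybridisation controls and -0.25 on the housekeeping genes.

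**Figure D3:**
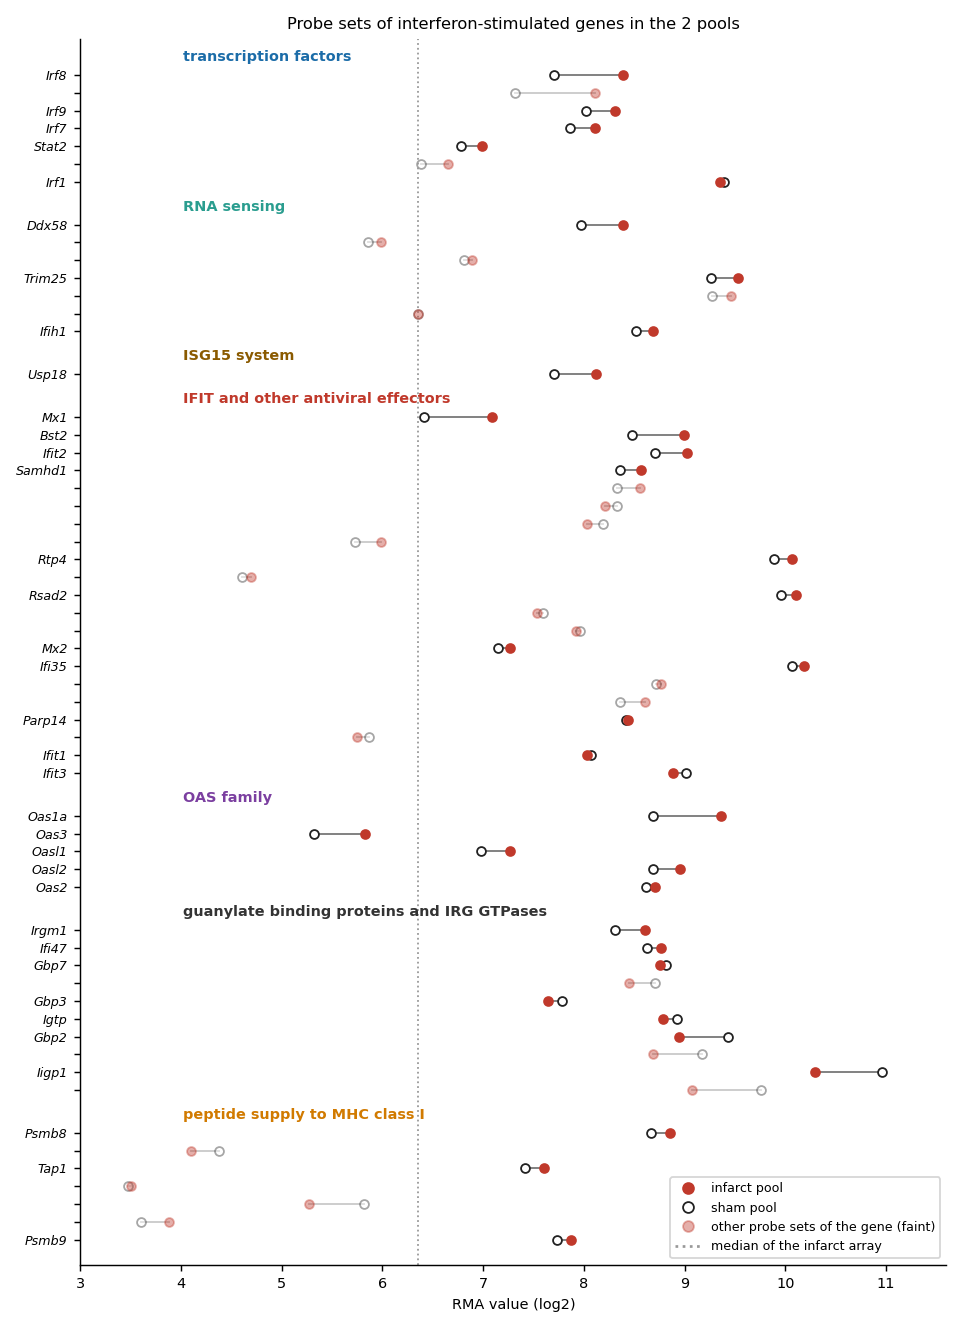
RMA value (log2) of each of the 58 probe sets of the measured members in the infarct pool (filled) and the sham pool (open), grouped by role, with the brightest probe set of each gene in full colour, its other probe sets faint below it and the median of the infarct array dotted. Levels of different probe sets are not comparable; the length and side of each line show the difference, and among the brightest probe sets of each gene it is widest to the right for Irf8, Oas1a and Mx1 and to the left for Iigp1 and Gbp2.

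The OAS enzymes make an oligoadenylate messenger that activates RNase L, and Oasl1 and Oasl2 encode OAS-like relatives. Oas1a had 9.36 in the infarct pool and 8.69 in the sham pool, a difference of 0.68 (1.6-fold). Oas3 had 5.83 in the infarct pool and 5.32 in the sham pool, below the median of both arrays, and was the only measured member not compared for that reason. Oas2, which lies in the same gene cluster, had 8.70 in the infarct pool and 8.62 in the sham pool (0.09). Members of this cluster thus differed among themselves by more than the SD between probe sets. Oasl1 had 7.27 in the infarct pool and 6.98 in the sham pool (0.29), and Oasl2 had 8.95 in the infarct pool and 8.69 in the sham pool (0.26). Each of the 5 genes has 1 probe set, and cross-hybridisation between the closely related Oas1 genes was not tested. The median of the 4 compared was 0.28 (-0.12 on the housekeeping genes, where Oas1a alone stayed above 0).

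The GTPases that interferon gamma induces against vacuolar pathogens made up the role with the lowest median. Of 7 genes for guanylate binding proteins (GBP) and immunity-related GTPases (IRG), 5 lay below 0 and 2 above it, with a median of -0.14. Among all genes, 49.8% lay below 0 and 49.5% above it. The median of the 7 was 0.18 on the hybridisation controls, where 5 lay above 0 (81.9% of all genes did) and 2 below. It was -0.53 on the housekeeping genes, where all 7 lay below 0 and 17.3% of all genes lay above it. Iigp1, an IRG that coats the vacuoles of parasites, had 10.29 in the infarct pool and 10.96 in the sham pool. Its difference of -0.67 (1.59-fold lower in the infarct pool) was the lowest of all members, and its second probe set gave -0.69. Gbp2 had 8.94 in the infarct pool and 9.43 in the sham pool (-0.49, 1.4-fold lower), with -0.49 by its second probe set as well. For both genes the probe sets agreed closely, and both lay below 0 in all settings tried. Their values on the housekeeping genes were -1.06, the only one of a member past 2-fold there, and -0.88.

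The remaining GTPase genes lay closer to 0. Gbp3 (7.65 in the infarct pool, 7.78 in the sham pool) and Gbp7 (8.76 in the infarct pool, 8.82 in the sham pool), neighbours of Gbp2 on chromosome 3, differed by -0.14 and -0.06, while the second probe set of Gbp7 gave -0.26. Igtp had 8.78 in the infarct pool and 8.93 in the sham pool (-0.14). On the other side, Irgm1, which regulates the other IRG proteins, had 8.60 in the infarct pool and 8.31 in the sham pool (0.29), and Ifi47 had 8.76 in the infarct pool and 8.63 in the sham pool (0.13). The windows of Gbp2, Gbp3, Gbp7, Igtp and Irgm1 held ISRE matches, so that this element occurred on both sides of 0. Those of Gbp7 and Igtp, both below 0, also held GAS matches.

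**Figure D4:**
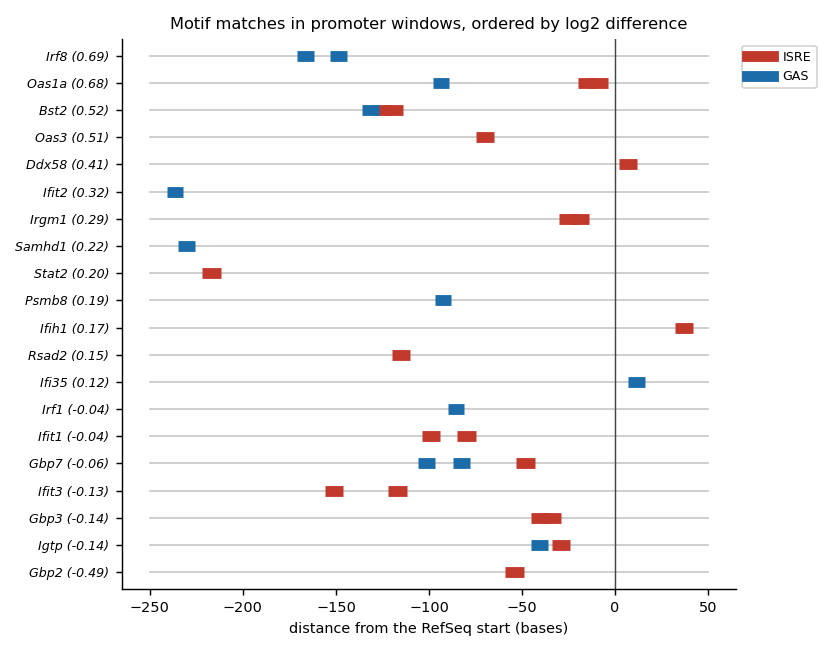
Position of ISRE (red) and GAS (blue) matches from the RefSeq gene start, in bases, for the 20 measured members with at least 1 match, ordered by their log2 difference (infarct minus sham, in brackets). ISRE matches stand near the top of the order (Oas1a, 0.68) and at its bottom (Gbp2, -0.49). GAS matches run from Irf8 (0.69), which heads it, down to Igtp (-0.14).

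Over the members with a value, Oas3 included, the 14 with an ISRE match had a median of 0.16 (-0.49 to 0.68, 8 above 0) and the 14 without one had a median of 0.23 (-0.04 to 0.69, 13 above 0). The 10 with a GAS match had a median of 0.20, with 7 above 0, where 49.5% of all compared genes lay above 0. These are descriptions of short lists that share genes, and no order of the elements is read from them.

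Members that supply peptides to MHC class I differed little. Psmb8 and Psmb9 encode catalytic subunits of the immunoproteasome, and Tap1 encodes a subunit of the peptide transporter of the endoplasmic reticulum. Psmb8 had 8.86 in the infarct pool and 8.67 in the sham pool (0.19), Psmb9 had 7.87 in the infarct pool and 7.74 in the sham pool (0.13), and Tap1 had 7.60 in the infarct pool and 7.42 in the sham pool (0.19). The dim probe sets of Psmb8 and Tap1 went as low as -0.28 and -0.55, and all 3 genes lay below 0 on the housekeeping genes. The third immunoproteasome subunit, Psmb10, differed by 0.0034. The constitutive subunits that these replace, Psmb5, Psmb6 and Psmb7, differed by 0.10, 0.0050 and -0.07. Of 10 genes for MHC class I and its peptide loading, 0 were 2-fold higher (3.73% of all genes were) or lower (1.26% were). Their median was 0.11 (-0.28 on the housekeeping genes). The widest of these differences were those of the chaperone genes Pdia3 (0.90) and Calr (0.48), of the proteasome activator gene Psme1 (-0.52) and of H2-D1 (0.29). The other probe set of Pdia3 gave 0.40, and the lowest of the 9 for H2-D1 gave -0.24.

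Transcripts of interferons themselves were at the low end of the scale. Of 21 ligand genes listed, 10 were on the array, and 8 fell short of the array median in each pool (3.72 to 5.33 in the infarct pool and 3.83 to 5.25 in the sham pool). Among them, Ifnb1, the type I interferon that most cells make first, had 5.33 in the infarct pool and 5.17 in the sham pool, and Ifng had 3.72 in the infarct pool and 3.86 in the sham pool. Low values of this kind show no level above background that could be compared. The ligand genes Ifna1 (-0.13) and Ifnz (-0.32) were bright enough. Ifna1 had 6.27 in the infarct pool, below the array median, and 6.4 in the sham pool, and was compared only through its sham value. Ifnz had 6.72 in the infarct pool and 7.05 in the sham pool.

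The receptor subunits took both signs. For type I interferon, Ifnar1 had 9.39 in the infarct pool and 8.89 in the sham pool (0.50, its second probe set giving 0.15), and Ifnar2 had 9.69 in the infarct pool and 9.57 in the sham pool (0.11). For interferon gamma, Ifngr1 differed by 0.21, whereas Ifngr2 had 10.02 in the infarct pool and 10.80 in the sham pool (-0.78, its second probe set giving -0.41). Ifngr2, the signalling subunit of the interferon gamma receptor, was thus the lowest of the receptor genes, and it lay below 0 on all zeros. The shared subunit gene Il10rb differed by -0.43, with 0.09 by its other probe set. Ifnlr1 was dim in both pools (5.99 in the infarct pool, 6.24 in the sham pool).

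The median of 7 compared JAK-STAT components and brakes was 0.23 (-0.16 on the housekeeping genes). Of them, 0 were 2-fold lower (1.26% of all genes were) and 1 was at least 2-fold higher (14.3%, against 3.73% of all genes). The one was Socs3, a feedback inhibitor that cytokines such as interleukin-6 induce, with 10.14 in the infarct pool and 8.90 in the sham pool (1.24, with 0.70 as the lowest of its 3 probe sets). Next came the phosphatase genes Ptpn6 (0.53) and Ptpn2 (0.33) and, below 0, Pias1 (-0.33), while the inhibitor most tied to interferon, Socs1, was dim (4.82 in the infarct pool, 5.16 in the sham pool). Of 12 genes for nucleic acid sensing upstream of interferon, 0 were 2-fold higher (3.73% of all genes were) or lower (1.26% were). Of the 12, 11 lay above 0 (91.7%, against 49.5% of all genes), with a median of 0.32. On the housekeeping genes 5 lay above 0 (17.3% of all genes did) and the median was -0.07. By the brightest probe set, the highest were the kinase gene Ikbke (0.65), Dhx58 (0.55, dim in the sham pool), the adaptor gene Myd88 (0.51) and Irf5 (0.47). The lowest probe sets of Dhx58 and Irf5 gave 0.05 and 0.21.

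A longer list of other type I interferon-stimulated genes resembled the members in its centre. Its 34 compared genes had a median of 0.21, with 29 above 0 (85.3%, against 49.5% of all genes). At 2-fold, 1 was higher (2.94%, against 3.73%) and 0 were lower (1.26% of all genes were). On the housekeeping genes its median was -0.18 with 6 above 0 (17.3% of all genes were). On the hybridisation controls it was 0.53 with 34 above 0 (81.9% of all genes were). Ifi204, which encodes a DNA-binding protein of myeloid cells, had 7.73 in the infarct pool and 6.66 in the sham pool (1.06). The chemokine gene Cxcl10 followed with 7.94 in the infarct pool and 7.01 in the sham pool (0.93), then Lgals9 (0.73) and Trim30a (0.66). Each of these 4 genes stayed above 0 on the housekeeping genes.

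Of 17 other genes known chiefly as targets of interferon gamma, 5 were compared, of which 3 lay below 0 (49.8% of all genes did) and 2 above it (49.5% did). Their median was -0.35 (-0.03 on the hybridisation controls, -0.74 on the housekeeping genes). At 2-fold, 0 were higher (3.73% of all genes were) and 0 lower (1.26% were). The T cell chemokine gene Cxcl9 had 6.97 in the infarct pool and 7.69 in the sham pool (-0.72, its second probe set giving -0.05). Cd274, which encodes PD-L1, had 5.83 in the infarct pool and 6.44 in the sham pool (-0.61), and was compared only through its sham value. Gbp6 had 8.45 in the infarct pool and 8.80 in the sham pool (-0.35, its second probe set giving -0.63). Irgm2 (0.26) and the MHC class I regulator gene Nlrc5 (0.33, compared only through its infarct value) lay above 0. With 5 genes this list can only be set beside the 7 GTPase members, and no difference between type I and interferon gamma targets was tested.

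**Figure D5:**
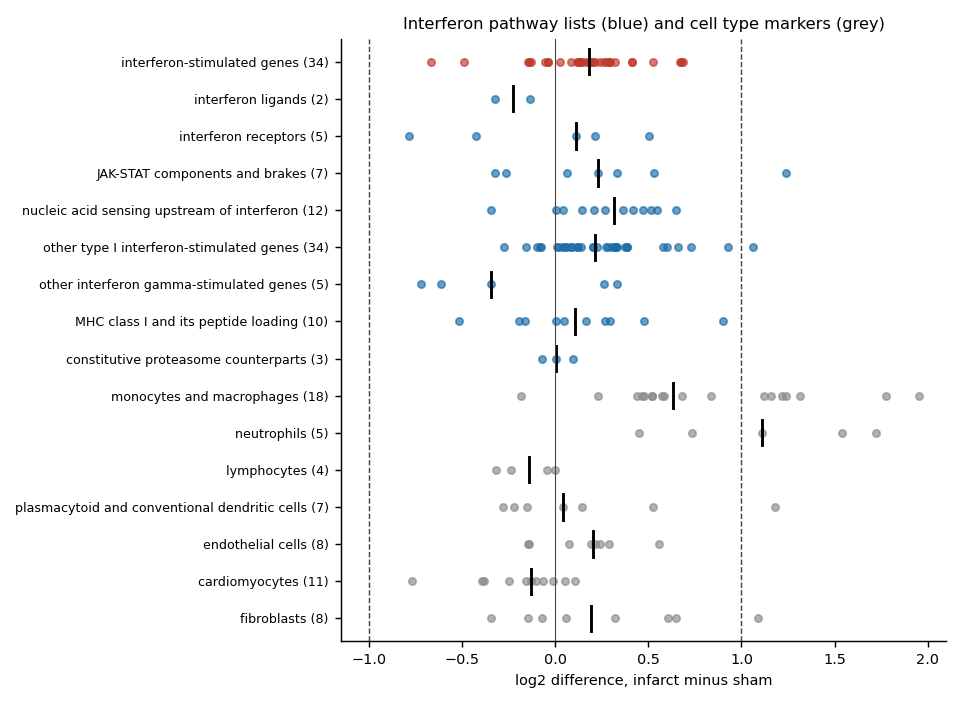
Log2 difference (infarct minus sham) of the 34 compared members (red), of other genes of the interferon pathway (blue) and of cell type markers (grey), 1 point per gene, with the median as a black line, the number of genes in brackets and the 2-fold limits dashed. Markers of macrophages (median 0.63) and neutrophils (median 1.11) extend past 2-fold, as does 1 of the other type I interferon-stimulated genes (Ifi204, 1.06). So do Socs3 (1.24) of the JAK-STAT list, Itgax (1.18) of the dendritic cell markers and Thy1 (1.09) of the fibroblast markers. The 34 members (median 0.18) do not.

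Markers of myeloid cells had higher medians than the interferon-stimulated genes. Of 18 monocyte and macrophage markers compared, 17 lay above 0 (94.4%, against 49.5% of all genes) and 7 were at least 2-fold higher (38.9%, against 3.73%). The highest were Msr1 (1.95, with 0.68 as the lowest of its 4 probe sets), Lgals3 (1.78), Mpeg1 (1.32) and Cd68 (1.24). The mean log2 value of the 18 was 10.54 in the infarct pool and 9.71 in the sham pool, and their median difference was 0.63, or 0.24 on the housekeeping genes. All 5 neutrophil markers compared lay above 0, with a mean of 8.52 in the infarct pool and 7.41 in the sham pool. They were S100a8 (1.72), S100a9 (1.54), Csf3r (1.11), Mmp9 (0.74) and Cxcr2 (0.45), of which Cxcr2 was dim in the sham pool and was compared only through its infarct value. The filter left out Camp (0), Ltf (-0.13), Ngp (-0.12), Elane (-0.06), Mpo (0.19) and Mmp8 (1.05), which were dim in both pools. The markers at or below 0 are thus not among those compared. Of the 34 members, 26 also lay above 0 (76.5%, against 49.5% of all genes) and 8 below it. The part of myeloid cells in the values of the members was not tested.

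Lymphocytes, which make interferon gamma, had mostly dim markers. Of 13 lymphocyte markers on the array, 4 were bright enough, and their differences ran from -0.32 (Cd79b, dim in the infarct pool) to 0 (Cd4), with Cd3e at -0.04 and Cd8a at -0.23. Their median of -0.14 lay at 0.18 on the hybridisation controls. The markers Cd3d, Cd3g, Ncr1 and Nkg7 were dim in both pools. Of 7 dendritic cell markers compared, a list that also holds the member Bst2, Itgax alone was 2-fold higher (14.3%, against 3.73% of all genes). Its difference was 1.18, and it was dim in the sham pool and compared only through its infarct value. Zbtb46, a factor of conventional dendritic cells, had 6.78 in the infarct pool and 7.0 in the sham pool (-0.22). Siglech, the defining marker of plasmacytoid dendritic cells, had 6.24, below the array median, in the infarct pool and 6.52 in the sham pool, and Ccr9 was dim in both.

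The medians of resident cell markers were closer to 0 as deposited. The 8 endothelial markers had a median of 0.20 (-0.19 on the housekeeping genes), the 8 fibroblast markers one of 0.19 (-0.20), and the 11 cardiomyocyte markers one of -0.13 (0.19 on the hybridisation controls). Many of the cardiomyocyte probe sets lie close to the highest value on the arrays (14.9), though that of Ryr2 does not (12.62 in the infarct pool, 13.01 in the sham pool). Other probe sets of the same genes went as low as -0.67 for Myh6, -0.60 for Tnnt2, -0.66 for Ryr2, -0.82 for Atp2a2 and -0.32 for Myl3. Those of Ckm (-0.36, against -0.77 by the brightest) and Mb (0.04, against -0.07) were higher instead. Among these 3 lists, Thy1 (1.09), a surface protein of fibroblasts and T cells, was the 1 marker at least 2-fold higher, where 3.73% of all genes were. The medians of the endothelial and fibroblast lists were close to the 0.18 of the interferon-stimulated genes, whereas that of the macrophage list was above it.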

How the data were processed

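Whole mouse hearts were profiled on GeneChip Mouse Genome 430 2.0 arrays. The authors deposited log2 values made by RMA, a method that corrects background, normalizes arrays together and summarises each probe set; the software version is not given in the sources used here. RMA gives both arrays nearly the same distribution (medians 6.35 in the infarct pool and 6.36 in the sham pool, range 2.95 to 14.9), so a difference in total mRNA cannot be seen. Of 45101 probe sets, 34945 named 1 gene, 932 named several and 9160 none; these last kinds and 64 control probe sets were left out. All 37 members matched RefSeq genes of GRCm38.p6.

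The probe set with the highest mean over both arrays stood for its gene, which was compared if that probe set reached the array's median on either array. Differences are infarct minus sham, counted at a log2 difference of 1 (2-fold). With 1 array per group no p-value was computed; precision is limited by having 2 arrays. The members and lists were chosen with earlier results of these data known. All members are named, and of each other list up to 4 genes with the largest differences, except for the endothelial, cardiomyocyte and housekeeping lists. No endothelial gene is named, and the other exceptions leave out some of their largest differences. Genes named of these exceptions, further genes of the other lists and the 1.5-fold threshold were chosen after their values were seen. Alternatives changed the scaling (median, quantile, loess with span 0.4, 3 sets of control genes), the probe set, the brightness filter and the threshold (1.4, that of the study). On simulated data for infarct against sham, over 11792 genes, 50 of 50 genes were recovered at each shift of 1.5 and 2.0 in either direction, and 0 of 11592 unshifted genes. The simulated noise was small against these shifts and held no variation between mice. The simulation therefore checks only the counting, and says nothing about differences as small as those of the members. Promoter sequences are those of RefSeq. Python 3.11.15, numpy 2.4.6, pandas 2.3.3, statsmodels 0.14.6 and matplotlib 3.10.9 were used.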

Additional observations from a re-analysis of the deposited data

How the results depend on the processing

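The housekeeping and hybridisation zeros, each a constant shift of every gene, moved the most values. With the zero on the housekeeping genes, 6 members (17.6%, against 17.3% of all genes) lay above 0, 1 (Iigp1) was at least 2-fold lower (5.82% of all genes were) and the median was -0.21 (-0.39 for all genes). With the zero on the hybridisation controls, 32 members (94.1%, against 81.9% of all genes) lay above 0, 1 (Irf8) was at least 2-fold higher (8.04% of all genes were) and the median was 0.50 (0.32 for all genes). Apart from these shifts, the sign changed for 1 member under quantile normalization, for 1 with the poly-A controls and for 2 with the mean over probe sets. At 1.5-fold, a threshold added after the data were seen, 3 members were higher (8.82%, against 10.3% of all genes) and 1 was lower (2.94%, against 6.32%). Counts of 0 at 2-fold were also found with probe sets counted in place of genes, for which the share over all probe sets was not counted. Under the other settings of scaling, probe sets and filter, the median ran from 0.13 to 0.20. The 75th percentile as filter left 24 members. No paired analysis was possible because each group has 1 array, and no sample could be left out. Which zero is right was not tested.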
